A study of Mus musculus with 2 samples.

Results

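The lysosome and cathepsin genes described here are 31 listed gene symbols, chosen by name from the 32285 genes counted in every cell of a mouse lung single-cell series. Each symbol matched 1 gene identifier in both libraries. They comprise 8 cathepsins (Ctsa, Ctsb, Ctsc, Ctsd, Ctsk, Ctsl, Ctss and Ctsz), 5 membrane proteins (Lamp1, Lamp2, Cd63, Cd68 and Gpnmb) and 7 hydrolases (Hexa, Gla, Gusb, Neu1, Man2b1, Asah1 and Tpp1). The others are prosaposin and progranulin (Psap and Grn), 7 proton pump genes (Atp6v0c, Atp6v0d1, Atp6v0d2, Atp6v1a, Atp6v1h, Atp6v1b2 and Atp6ap1), the calcium channel gene Mcoln1 and the regulator Tfeb. The study measured RNA of single cells from whole lung digests of C57BL/6 mice by 10x Genomics 3′ sequencing, with 1 library titled injured, taken 14 days after injury, and 1 titled control, at steady state. Both libraries carry the same genotype, SP-CI73T mutant, a mutant surfactant protein C, and surfactant protein C (gene Sftpc) is made by alveolar type 2 cells. By the treatment protocol, a single oral gavage of tamoxifen at 175 mg/kg in corn oil cuts out a neomycin cassette, after which more mutant protein is expressed. The treatment tags go against the titles: the library titled injured is tagged untreated and the library titled control is tagged tamoxifen treated. Every direction below is therefore that of the library titled injured against the library titled control. The lungs were lavaged and perfused with saline before collagenase D digestion, so cells washed out by the lavage are not in these suspensions. The number, age and sex of the animals behind each library are not given in the sources used here.

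Lysosomes are acidic organelles that break down proteins, lipids and sugars delivered by phagocytosis, endocytosis and autophagy. The vacuolar ATPase pumps in protons, the low pH activates cathepsins and glycosidases, saposins cut from prosaposin present sphingolipids to their hydrolases, and heavily glycosylated proteins such as LAMP1 and LAMP2 line the membrane. The factor TFEB binds a short DNA motif, the CLEAR element, at the promoters of many such genes, and the lysosomal calcium channel mucolipin 1 acts upstream of it. In the lung, alveolar macrophages use this machinery to clear surfactant, and type 2 cells store surfactant in lamellar bodies, which are organelles related to lysosomes.

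The promoters of these genes were read because the palindrome CACGTG is the core of the CLEAR element. Members were chosen by name and not by sequence. Since CLEAR is described at promoters of many lysosome genes, the shares below are not independent of that choice. RefSeq promoter windows on GRCm38.p6, from 250 bases before to 50 bases after a gene's start, were held for 26 of the 31 members. The palindromes searched read the same on both strands, and each longer one contains the shorter. CACGTG lay in the windows of 8 of the 26 (30.8%), against 8.09% of 27025 gene symbols with a window. TCACGTGA lay in 6 of the 26 (23.1%), against 1.12% of all symbols, and its 10-letter form, with a further G before and C after it, in 0 of the 26, against 0.37% of all symbols. A match is a run of letters, and binding was not measured. Upstream here refers to the RefSeq start. By the GRCm38 member coordinates, the Ctsa, Ctsd and Atp6v1a stretches lie inside the gene and the Mcoln1 stretch does in part. Stretches of 70 bases are shown 5′ to 3′ on the gene's strand with CACGTG in capitals. They come from the 5 members with TCACGTGA wholly upstream of the start and from Lamp1 for its 4 copies of the core.
Ctsa, chr2:164833703-164833772, plus strand: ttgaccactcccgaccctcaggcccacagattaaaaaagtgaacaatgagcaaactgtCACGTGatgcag
Ctsd, chr7:142387891-142387960, minus strand: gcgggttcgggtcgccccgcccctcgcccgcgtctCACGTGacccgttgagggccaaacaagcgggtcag
Atp6v1a, chr16:44139356-44139425, minus strand: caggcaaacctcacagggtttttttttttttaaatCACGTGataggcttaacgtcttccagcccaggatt
Gla, chrX:134601186-134601255, minus strand: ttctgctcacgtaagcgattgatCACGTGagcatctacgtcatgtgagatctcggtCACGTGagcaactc
Mcoln1, chr8:3500439-3500508, plus strand: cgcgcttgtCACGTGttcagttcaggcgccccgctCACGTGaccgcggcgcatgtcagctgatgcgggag
Lamp1, chr8:13159091-13159160, plus strand: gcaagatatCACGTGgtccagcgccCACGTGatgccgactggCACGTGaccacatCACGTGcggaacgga

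After filtering, 2302 injured and 2298 control cells remained, with 19951114 and 16004524 unique molecular identifiers (UMIs, each standing for 1 captured RNA molecule) and medians of 3269 and 4487 UMIs per cell. The libraries shared 1 cell barcode sequence. The cells fell into 24 clusters made without the members or the other lysosome genes, and clusters were called X-like from marker genes. Levels are given as CPM, the counts of a gene per 1000000 UMIs of a class in a library. With 1 library per group there is no test between groups, and every interval is an exact 95% interval for counting error only. A gene is called higher or lower where the ratio of CPM reached 1.5-fold, among genes with at least 50 counts over both libraries and classes with at least 30 cells in each. Sftpc, the mutated gene, stood at 13204 CPM in control and 5201 CPM in injured alveolar epithelial-like cells. In this class type 2 genes marked most control cells and type 1 genes most injured cells. A different cell mix and a different level per cell therefore cannot be told apart for Sftpc. Counts from the 3′ end also cannot tell the mutant allele from the wild type.

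The lysosome genes took up a larger share of the RNA in the injured library, and macrophages supplied most of it. The 31 genes together made 1.97% of all injured and 1.09% of all control UMIs. At the level of whole libraries, 13 of the 31 members were higher in the injured library and 0 were lower, against a background of 19.1% of all 13069 tested genes higher and 14.3% lower. The median log2 ratio was 0.52 over the members and 0.07 over all genes. The cathepsin L gene Ctsl was 5.53-fold higher (95% interval 5.31 to 5.76), at 922 against 167 CPM, and the tetraspanin gene Cd63 was 5.05-fold higher (95% interval 4.87 to 5.24), at 1045 against 207 CPM. Ctsk, whose product is the collagen-degrading cathepsin of osteoclasts, was 4.99-fold higher (95% interval 4.80 to 5.19), at 959 against 192 CPM, and Ctsb was 2.81-fold higher (95% interval 2.74 to 2.88). The smallest ratios belonged to Hexa (ratio 0.804, 95% interval 0.769 to 0.840), Tfeb (ratio 0.921, 95% interval 0.819 to 1.04), the pump gene Atp6v0d2 (ratio 1.01, 95% interval 0.972 to 1.04) and Mcoln1 (ratio 1.06, 95% interval 0.914 to 1.22). In such sums more cells of a type and more RNA per cell cannot be told apart, so the classes follow one by one.

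Which cells held the counts differed between the libraries. In the injured library, 429 alveolar macrophage-like cells were 18.6% of the cells and held 45.5% of all member counts, and 344 C1q macrophage-like cells were 14.9% of the cells and held 34.9%. In the control library, 433 alveolar macrophage-like cells were 18.8% of the cells and held 69.4% of the member counts, with 8.23% in 105 classical monocyte-like cells. The C1q macrophage-like class had 10 cells there. These C1q cells, led by C1qa, C1qc, Ccl24, Mmp12 and Arg1, had the largest summed level of the classes described, 3.77% of their UMIs in the injured library. Alveolar macrophage-like cells followed with 2.78%, against 1.96% in the control library. Neutrophil-like cells had 0.680% and 0.562%, cDC2-like cells 0.666% and 0.633%, alveolar epithelial-like cells 0.636% and 0.323%, and secretory-like cells 0.197% and 0.0858%. B cell-like cells, with 0.224% and 0.229%, stood above the secretory class. Among single cells the spread was wide: in the C1q class the median cell had 3.35% and the middle 50% of cells ran from 1.78% to 5.89%.

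**Figure D1:**
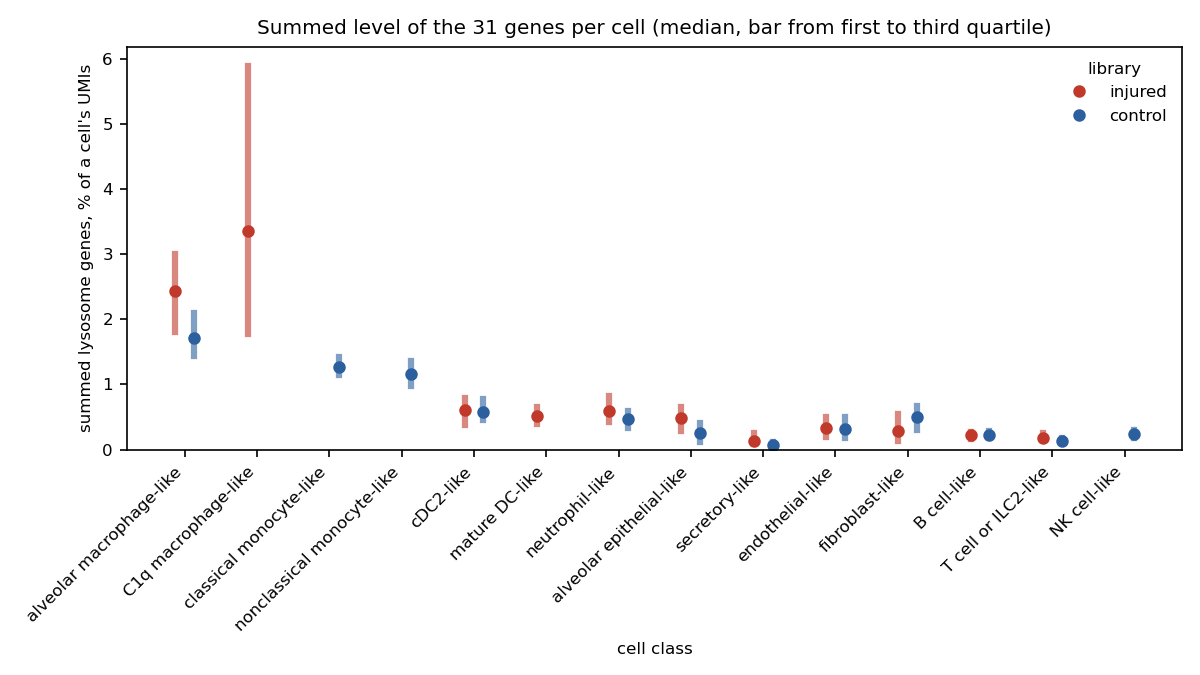
Summed counts of the 31 lysosome genes as a percent of each cell's UMIs, by cell class (x axis) and library (colour); points are medians over cells and bars run from the first to the third quartile. C1q macrophage-like cells of the injured library have a median of 3.35%, and alveolar macrophage-like cells have medians of 2.44% (injured) and 1.71% (control).

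Ranked by CPM over the classes with at least 30 cells, C1q macrophage-like cells came first for 16 of 31 members in the injured library and alveolar macrophage-like cells for 11. The exceptions were Lamp2 in neutrophil-like, Tpp1 in alveolar epithelial-like, Mcoln1 in endothelial-like and Tfeb in B cell-like cells. The first places of Mcoln1 and Tfeb rested on 6 and 13 counts. Mcoln1 stood at 36.7 CPM there and at 30.9 CPM, on 198 counts, in alveolar macrophage-like cells. In the control library, alveolar macrophage-like cells came first for 22 members, nonclassical monocyte-like cells for Ctsb, Man2b1 and Tfeb, classical ones for Psap and Asah1, fibroblast-like cells for Ctsl and Cd63, and neutrophil-like cells for Lamp2 and Gla. The control neutrophil-like Gla level rested on 17 counts. Depth enters such orders, so each cell was also thinned to 1000 UMIs. The share of thinned cells with a UMI was then highest in a macrophage class for 25 members (injured library) and 19 (control library), against 30 and 14 before thinning.

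The cathepsins differed in the classes where they were highest. Ctsd, an aspartic protease of the lysosome, stood at 5437 and 3807 CPM in alveolar macrophage-like cells of the injured and control libraries, 5066 CPM in C1q cells, and 768 and 954 CPM in neutrophil-like cells. In cDC2-like cells it was at 70.4 and 56.7 CPM, above B cell-like cells of the same library and below the 192 and 157 CPM of T cell or ILC2-like cells. Ctss, the cathepsin that trims the class II invariant chain in antigen-presenting cells, had another pattern: 5448 CPM in C1q cells, 2351 and 2558 in alveolar macrophage-like cells and 1070.3 and 865 in cDC2-like cells. It reached 12.9 and 33.5 CPM in alveolar epithelial-like cells.

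Cd63 and Lamp1 were also high outside macrophages. Cd63, a tetraspanin of late endosomes and granules, stood at 1641 CPM in C1q cells, 1176 and 564 CPM in alveolar epithelial-like cells of the injured and control libraries, and 808 and 771 CPM in fibroblast-like cells. In cDC2-like cells it was at 21.6 and 4.20 CPM. Lamp1 ran from 1120.5 CPM in C1q cells to 79.3 CPM in T cell or ILC2-like cells of the injured library. Psap, the precursor of the saposins, stood at 7276 CPM in C1q cells, 4508 and 3022 in alveolar macrophage-like cells, and 2117 and 2349.7 in cDC2-like cells. Grn, the progranulin gene, was at 1342 CPM in C1q cells and 31.8 and 3.27 CPM in secretory-like cells.

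Of the hydrolases, Man2b1, an alpha-mannosidase, was spread over myeloid classes, with 424 CPM in C1q cells, 415 in cDC2-like and 312 in neutrophil-like cells of the injured library. Hexa, the alpha subunit of beta-hexosaminidase, had its highest ranked level at 459.7 CPM in control alveolar macrophage-like cells. Pump genes differed from one another. The proteolipid subunit gene Atp6v0c was at 1475 CPM in C1q cells and 1182 CPM in neutrophil-like cells of the injured library. Atp6v0d2, a tissue-restricted subunit of macrophages and osteoclasts, was at 716 and 807 CPM in alveolar macrophage-like cells and at no more than 18.8 CPM in the dendritic, neutrophil and epithelial classes. Mcoln1 and Tfeb were sparse, at 30.9 and 39.8 CPM in injured alveolar macrophage-like cells.

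**Figure D2:**
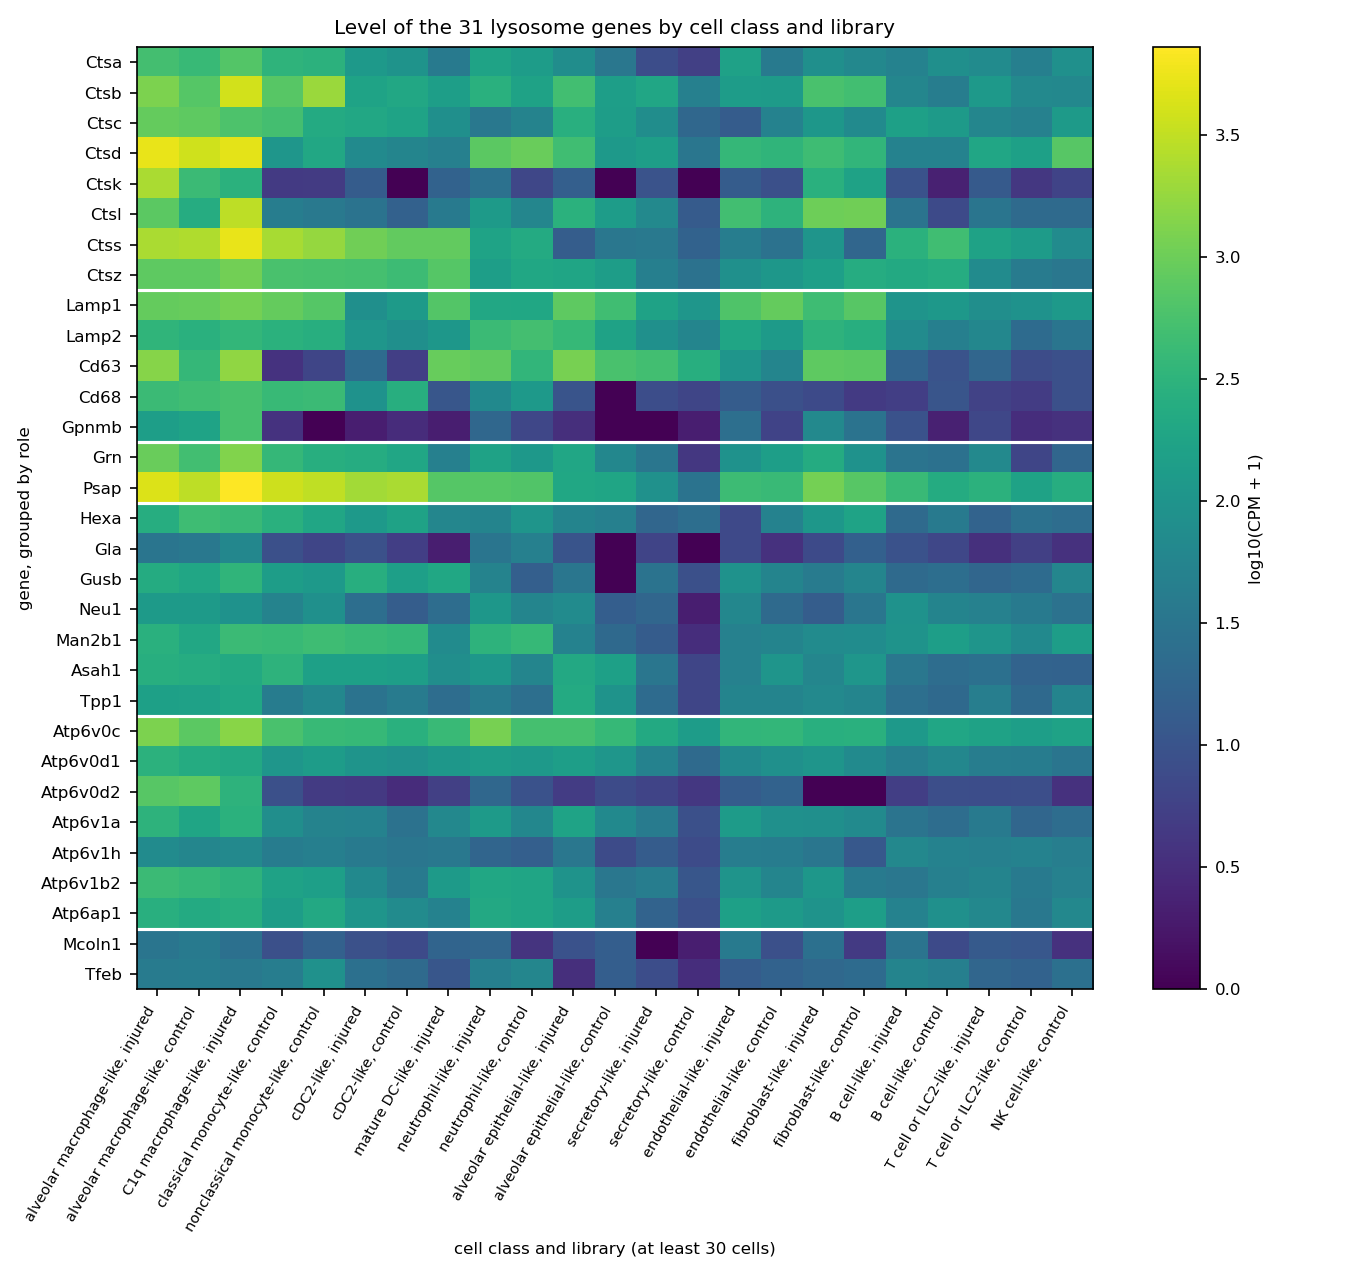
Level of each of the 31 genes (rows, grouped by role) in each cell class and library with at least 30 cells (columns), coloured by log10(CPM + 1). In the injured library the cathepsin and Psap rows are brightest in the macrophage columns, while Cd63 is also bright in alveolar epithelial-like and fibroblast-like columns.

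In alveolar macrophage-like cells a small group of genes was higher in the injured library while most stayed within 1.5-fold. Of the 31, 7 were higher (Ctsk, Cd63, Ctsl, Grn, Ctsb, Atp6v1a and Atp6v0c) and 1, Hexa, was lower, against a background of 11% of 9393 genes higher and 19.6% lower. The median log2 ratio was 0.26 over the members and -0.14 over all genes. Ctsk (GRCm38 chr3:95499256-95509362) was at 2314 CPM in injured and 423 CPM in control cells, 5.48-fold higher (95% interval 5.25 to 5.71). After thinning, 70.2% of 369 injured and 32.2% of 373 control cells had a Ctsk UMI. The same share in T cell or ILC2-like cells, which should lack the gene, was 2.78% and 0.332%. Median depths before thinning were 13713 and 15863 UMIs in the macrophages and 4918.5 and 5798 in the T cell or ILC2-like class. Ctss, on the same chromosome, did not share the pattern, at 2351 against 2558 CPM (ratio 0.919, 95% interval 0.899 to 0.940).

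Cd63 was 3.88-fold higher (95% interval 3.71 to 4.07) in these macrophages, at 1432 against 369 CPM, and Ctsl was 3.19-fold higher (95% interval 3.01 to 3.38), at 783 against 245 CPM. Grn was 1.90-fold higher (95% interval 1.81 to 1.98), at 948 against 500.2 CPM. The pump genes Atp6v1a, a catalytic subunit, and Atp6v0c were 1.70-fold and 1.65-fold higher, while the other 5 pump genes lay within 1.5-fold. Hexa was 1.79-fold lower (95% interval 1.68 to 1.90), at 257 against 459.7 CPM. The next smallest ratios stayed within 1.5-fold: Mcoln1 (ratio 0.812, 95% interval 0.669 to 0.986), Gpnmb (ratio 0.850, 95% interval 0.777 to 0.929) and Atp6v0d2 (ratio 0.887, 95% interval 0.852 to 0.924). Psap (ratio 1.49, 95% interval 1.46 to 1.52) and Ctsd (ratio 1.43, 95% interval 1.40 to 1.45) lay just inside the 1.5-fold bound, and the scavenger-like macrophage protein gene Cd68 was at 425 against 476 CPM. Of the 6 members with TCACGTGA in their promoter window, Atp6v1a was called higher here. The others, Ctsa, Ctsd, Gla, Atp6v0d1 and Mcoln1, had ratios from 0.812 to 1.43.

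Different clusters supplied this class in the 2 libraries. Cluster 5, led by Marco, Chil3 and Spp1, held 309 injured and 0 control cells, and cluster 4, led by Fabp1, Ear1 and Krt79, held 1 and 320. Cluster 9, with 119 injured and 113 control cells but medians of 974 and 985 UMIs, held both. Within cluster 9, 6 of 26 members were higher and 5 lower, against 14.2% and 20.3% of all genes. The median log2 ratio was -0.0035 over the members and -0.064 over all genes. Pooled over its cells, the members made 2.32% of injured and 2.21% of control UMIs, but the median cell had 0.716% and 1.39%. The ratios use pooled counts, in which deep cells weigh more. Ctsk was again 2.76-fold higher (95% interval 2.15 to 3.57), at 909 against 329.7 CPM, Ctsl 2.5-fold higher (95% interval 1.87 to 3.37) and Cd63 1.87-fold higher (95% interval 1.59 to 2.21), while Grn was not, with a ratio of 0.954 (95% interval 0.735 to 1.24). Hexa was 2.10-fold lower (95% interval 1.59 to 2.80) in cluster 9. The C1q macrophage markers moved with the class: all 11 had counts in injured alveolar macrophage-like cells, summing to 925 CPM, and 9 of 11 did in control ones, summing to 153 CPM, with C1qc and Folr2 at 0. In cluster 9 their sums were 2189 and 305 CPM. Their part in the ratios was not tested.

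**Figure D3:**
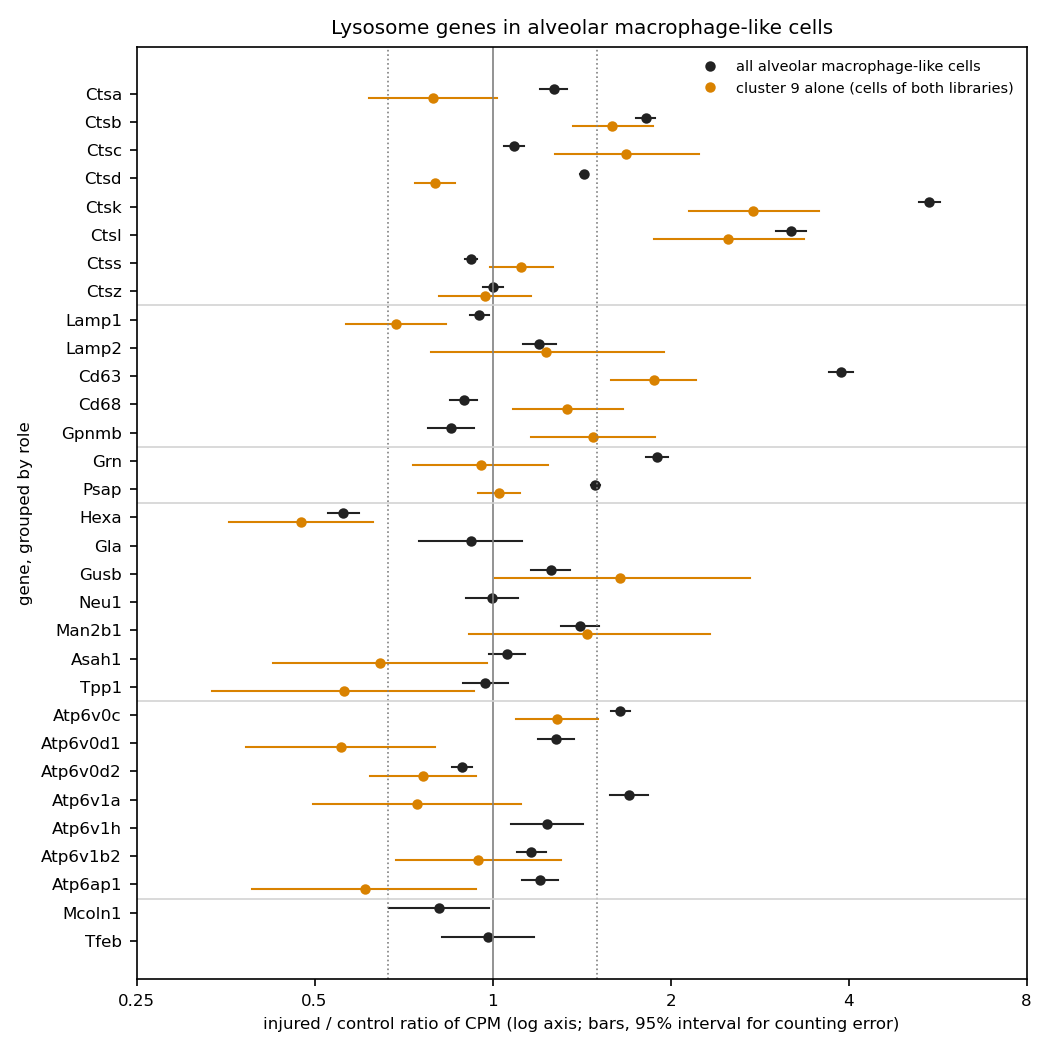
Ratio of CPM, injured over control, for each of the 31 genes in all alveolar macrophage-like cells and in cluster 9 alone (log axis; bars are 95% intervals for counting error). Ctsk, Ctsl and Cd63 lie right of 1.5 and Hexa lies left of 1 in both, while Grn is 1.90 in the class and 0.954 in cluster 9.

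C1q macrophage-like cells differed from alveolar macrophage-like cells of the same library in which cathepsins they carried. In the C1q cells 7 of 31 members were higher and 2 lower, against 13.6% of 9070 genes higher and 12.3% lower. Ctsl stood at 2985 against 783 CPM, 3.81-fold higher (95% interval 3.69 to 3.94). Gpnmb, a glycoprotein of lipid-laden and tissue-remodelling macrophages, stood at 548 against 145 CPM, 3.78-fold higher (95% interval 3.49 to 4.09). Ctsb was 3.12-fold higher (95% interval 3.03 to 3.20) and Ctss 2.32-fold higher (95% interval 2.27 to 2.37), while Gla, Hexa and Psap were 1.92-fold, 1.63-fold and 1.61-fold higher. In the other direction Ctsk, at 293 against 2314 CPM, was 7.89-fold lower (95% interval 7.41 to 8.40), and Atp6v0d2 was 2.29-fold lower (95% interval 2.14 to 2.44). Ctsk, with the largest ratio between libraries in alveolar macrophages, had the lowest C1q to alveolar macrophage ratio, while Ctsl was high on both counts. The 2 ratios share the injured alveolar macrophage level, on top in the first and below in the second. They are therefore not independent. The alveolar macrophage marker Chil3 was at 44.3% of its alveolar macrophage level in the C1q cells, and its part in these values was not tested.

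Dendritic cells came in a cDC2-like class (83 injured and 64 control cells) and a mature DC-like class marked by Fscn1 and Ccl22 (99 and 10 cells). The cDC2-like class had 3 cDC2 markers and 1 cDC1 marker, Xcr1, among its 10 leading genes. At 3-fold it had 6 markers of each list, so it may hold both types. The share of each type in the 2 libraries, and its part in the ratios, was not tested. In cDC2-like cells 3 of 20 members were higher and 2 lower in the injured library, against 18.2% of 3720 genes higher and 11.5% lower. The median log2 ratio was 0.27 over the members and 0.08 over all genes. The higher ones were 2 subunits of the pump's catalytic head and a glucuronidase: Atp6v1a (ratio 1.87, 95% interval 0.992 to 3.78), Atp6v1b2 (ratio 1.77, 95% interval 1.03 to 3.19) and Gusb (ratio 1.73, 95% interval 1.33 to 2.29, at 262 against 151 CPM). The interval of Atp6v1a includes 1. Atp6ap1 followed with a ratio of 1.41 (95% interval 0.943 to 2.17). Cd68 was 2.86-fold lower (95% interval 2.14 to 3.82), at 91.9 against 262 CPM, and Lamp1 was 1.54-fold lower (95% interval 1.08 to 2.20), at 81.7 against 126 CPM. The direction of Lamp1 turned with the cells taken in, with a ratio of 1.07 at a mitochondrial limit of 25% and 2.04 with each library clustered alone, where 20 members were higher and 0 lower. Hexa and Ctsb had ratios of 0.698 and 0.838. Neutrophil markers summed to 287 CPM in injured and 626 CPM in control cells of this class, and their part was not tested.

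The mature DC-like cells gave no ratio between libraries, since the control library held 10 of them, but within the injured library they carried a different set of lysosome genes from cDC2-like cells. In mature cells 3 of 23 members were higher and 9 lower, against 21.4% of 4556 genes higher and 26.5% lower, and the median log2 ratio was -0.32 over the members and -0.08 over all genes. Cd63 stood at 906 CPM in mature and 21.6 CPM in cDC2-like cells, 42.0-fold higher (95% interval 26.7 to 70.1). Lamp1 stood at 678 against 81.7 CPM, 8.30-fold higher (95% interval 6.49 to 10.7), and Atp6v1b2 was 1.86-fold higher (95% interval 1.34 to 2.59). After thinning, 53.6% of 84 mature cells and 0 of 71 cDC2-like cells had a Cd63 UMI, and 44.0% and 4.23% had a Lamp1 UMI. A count of 0 was given a limit of 3 cells, so up to 4.23% of cDC2-like cells could have a Cd63 UMI at that depth. Unthinned, 79.8% of mature and 13.3% of cDC2-like cells had one, at median depths of 6687 and 3960 UMIs. In the 10 control mature cells, unthinned, 90% had a Cd63 UMI and 70% a Lamp1 UMI. The lower members were mostly enzymes and their activators. Cd68 was 9.28-fold lower, Man2b1 5.72-fold, Grn 5.15-fold, Ctsa 3.37-fold, Psap 3.02-fold and Ctsc 2.46-fold lower. Hexa, Atp6ap1 and Asah1 were 2.02-fold, 1.99-fold and 1.99-fold lower.

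There were 588 injured and 126 control neutrophil-like cells, and their lysosome genes depended on which neutrophils were compared. Over the class, 9 of 26 members were higher and 4 lower in the injured library, against a background of 45.9% of 4023 genes higher and 9.55% lower. The median log2 ratio was 0.14 over the members and 0.50 over all genes, and with CPM rescaled by size factors 4 members were higher and 10 lower. Gusb was 3.69-fold higher (95% interval 1.5 to 11.8), at 51.5 against 13.9 CPM. Cd63, which marks primary granules, was 2.37-fold higher (95% interval 1.96 to 2.87), at 826 against 349 CPM. Atp6v0c was 2.21-fold higher (95% interval 1.90 to 2.58), at 1182 against 536 CPM, and Ctsl was 2.18-fold higher (95% interval 1.38 to 3.62). Hexa was 1.88-fold lower (95% interval 1.23 to 2.86), Cd68 1.85-fold lower (95% interval 1.25 to 2.71), Gla 1.57-fold lower (95% interval 0.828 to 2.85) and Ctsc, which activates the serine proteases of neutrophil granules, 1.54-fold lower (95% interval 0.848 to 2.71).

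Most injured neutrophil-like cells (427) were in cluster 0, which held 7 control cells and had 1 neutrophil marker among its 10 leading genes and 11 at 3-fold. Cluster 7 held 161 injured and 119 control cells. Within cluster 7 alone, 2 of 18 members were higher and 7 lower in the injured library, against 19.9% and 14.3% of 1849 genes. The median log2 ratio was -0.30 over the members and 0.07 over all genes, and Cd63 and Atp6v0c were not higher, with ratios of 0.919 and 0.908. Ctsl and Neu1, a sialidase, were 1.89-fold and 1.77-fold higher there. Ctsz, at 59.4 against 210.1 CPM, was 3.54-fold lower (95% interval 2.18 to 5.94) and Ctsd, at 423 against 894 CPM, was 2.11-fold lower (95% interval 1.74 to 2.57). Ctss, Atp6v1b2, Lamp1, Cd68 and Psap were 2.19-fold, 2.12-fold, 1.91-fold, 1.89-fold and 1.74-fold lower.

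Cluster 0 carried more of these genes than cluster 7 within the injured library. In cluster 0, 15 of 23 members were higher and 2 lower, against 47.6% of 3531 genes higher and 12.2% lower, with a median log2 ratio of 0.95 over the members and 0.54 over all genes. Cd63 stood at 1115 against 201 CPM, 5.54-fold higher (95% interval 4.39 to 7.07), Atp6v0c was 3.05-fold higher (95% interval 2.61 to 3.57) and Ctsz 3.12-fold higher (95% interval 2.01 to 5.07). Lamp2, in contrast, stood at 322 against 676 CPM, 2.10-fold lower (95% interval 1.77 to 2.5), and Man2b1 was 1.52-fold lower. Chil3, a gene of alveolar macrophages that neutrophils can also make, was at 2523 CPM in cluster 0, 11.8% of its level in alveolar macrophages, and at 418 CPM in injured cells of cluster 7. Over the class the alveolar macrophage markers summed to 2245 CPM, against 293 CPM in the control library, of which Chil3 made 1857 and 128 CPM, with Ear1, Cidec and Fabp1 at 0 in the injured cells. Their part in the neutrophil values was not tested.

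**Figure D4:**
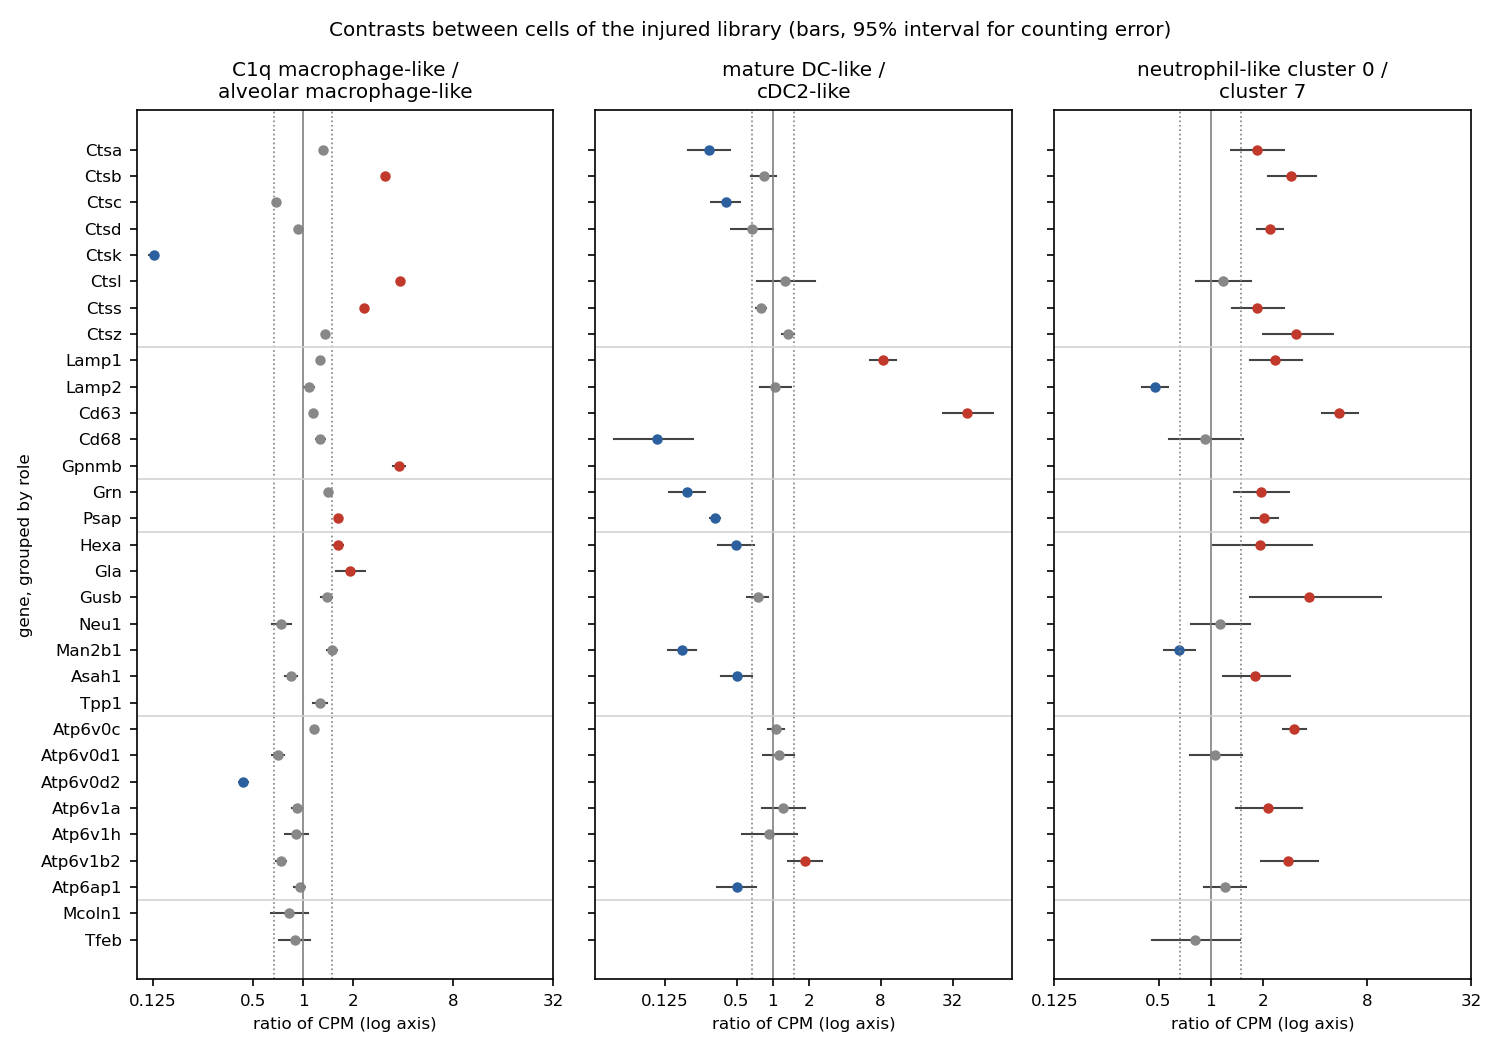
Ratios of CPM between cell groups of the injured library for each member (log axes; bars are 95% intervals for counting error): C1q against alveolar macrophage-like cells, mature DC-like against cDC2-like cells, and neutrophil cluster 0 against cluster 7. Cd63 is 42.0-fold higher in mature DC-like cells, and Ctsk is 7.89-fold lower in C1q cells.

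In alveolar epithelial-like cells (101 injured and 83 control) lysosome genes were higher in the injured library, as were most genes tested in that class. Of 21 members with 50 counts, 15 were higher and 0 lower, against 53% of 4739 genes higher and 11.9% lower. The median log2 ratio was 1.18 over the members and 0.67 over all genes. The class held 1315902 injured and 149041 control UMIs, so genes reached 50 counts mostly through the injured library. This leaves less room for lower calls. Members under 50 counts, which were not called, had ratios in both directions. With size factors 9 were higher and 0 lower. Ctsd was 3.91-fold higher (95% interval 2.45 to 6.64), at 472 against 121 CPM, and Ctsb was 3.29-fold higher (95% interval 2.16 to 5.30), at 486 against 148 CPM. The control Ctsd level lay between those of control B cell-like and of T cell or ILC2-like cells (157 CPM), while the injured level lay above both classes of its library. Neu1 had a ratio of 5.38 (95% interval 1.45 to 45.1) on 2 control counts, and Grn was 3.18-fold higher (95% interval 1.65 to 7.04). Cd63 was 2.09-fold higher (95% interval 1.67 to 2.63), at 1176 against 564 CPM. The smallest ratios were those of Psap (ratio 1.06, 95% interval 0.719 to 1.63), Hexa (ratio 1.15, 95% interval 0.530 to 2.96), Ctsz (ratio 1.32, 95% interval 0.842 to 2.16) and Atp6v0d1 (ratio 1.36, 95% interval 0.816 to 2.43).

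The 2 epithelial clusters were unevenly filled. Cluster 19, led by the type 1 cell genes Ager, Cldn18 and Aqp5 together with Krt7 and Krt8, held 83 injured and 20 control cells with medians of 13577 and 994.5 UMIs. Cluster 20, led by the type 2 genes Sftpc and Sftpa1, held 18 and 63 cells. The class was thus mostly type 1 marked among injured and type 2 marked among control cells, with Krt8 at 2025 against 423 CPM. In cluster 19 alone, which has under 30 control cells, 10 of 21 members were higher and 2 lower, against 28.7% of 4543 genes higher and 19% lower. In cluster 20 alone, which has under 30 injured cells, 2 members had 50 counts and 0 were higher or lower, against 16.8% of 351 genes higher and 21.7% lower. They were Cd63, at 655 against 721 CPM, and Atp6v0c, at 485 against 446 CPM. Chil3 reached 0.591% and 0.865% of its alveolar macrophage level in the epithelial class, against the 0.981% and 0.492% of T cell or ILC2-like cells.

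Secretory-like airway cells, led by Scgb3a1, Scgb3a2 and Scgb1a1 (80 injured and 118 control), were low in lysosome transcripts. The 9 members with 50 counts were all higher in the injured library, against 30.7% of 1348 genes higher and 9.72% lower, with a median log2 ratio of 0.89 over the members and 0.15 over all genes. Cd63 was 1.86-fold higher (95% interval 1.56 to 2.22), at 489 against 264 CPM, well above its 17.6 and 7.02 CPM in T cell or ILC2-like cells. Ctsd was 4.53-fold higher (95% interval 2.93 to 7.18), at 143 against 31.6 CPM, Ctsc 4.20-fold higher (95% interval 2.35 to 7.84), Ctsb 3.94-fold higher (95% interval 2.75 to 5.74) and Psap 3.12-fold higher (95% interval 1.91 to 5.22). The Psap levels, 88.3 and 28.3 CPM, lay below those of T cell or ILC2-like cells of the same library, 302 and 165 CPM. The share of secretory-like cells with a Ctsd UMI did not follow the CPM: it was 4.84% (injured) and 5.31% (control) after thinning, and 28.8% and 18.6% before. In B cell-like cells the thinned shares were 10.7% and 4.81%, and median depths were 2405 and 4978.5 UMIs in the secretory and 3370 and 4486 in the B cell-like class. Ctsb lay above the T cell or ILC2-like level in the injured library (189 against 123 CPM) and below it in the control library (47.9 against 64.8 CPM). Ctsz, Atp6v0c, Lamp1 and Lamp2 were 1.69-fold, 1.65-fold, 1.61-fold and 1.53-fold higher. The 95% interval of Ctsz (0.936 to 3.05) includes 1, and that of Lamp2 ran from 1.01 to 2.31. Some of these directions turned: without doublet removal 4 members were higher and 1 lower, with Psap at a ratio of 0.870, and with each cell weighted equally Ctsz had a ratio of 0.597. Scgb1a1 alone stood at 445730 and 581685 CPM in this class, and with it left out of the total 4 of the 9 were higher. Neutrophil markers summed to 1792 CPM in injured and 63.2 CPM in control cells, and Chil3 stood at 1.17% and 0.451% of its macrophage level. Their part in these ratios was not tested.

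**Figure D5:**
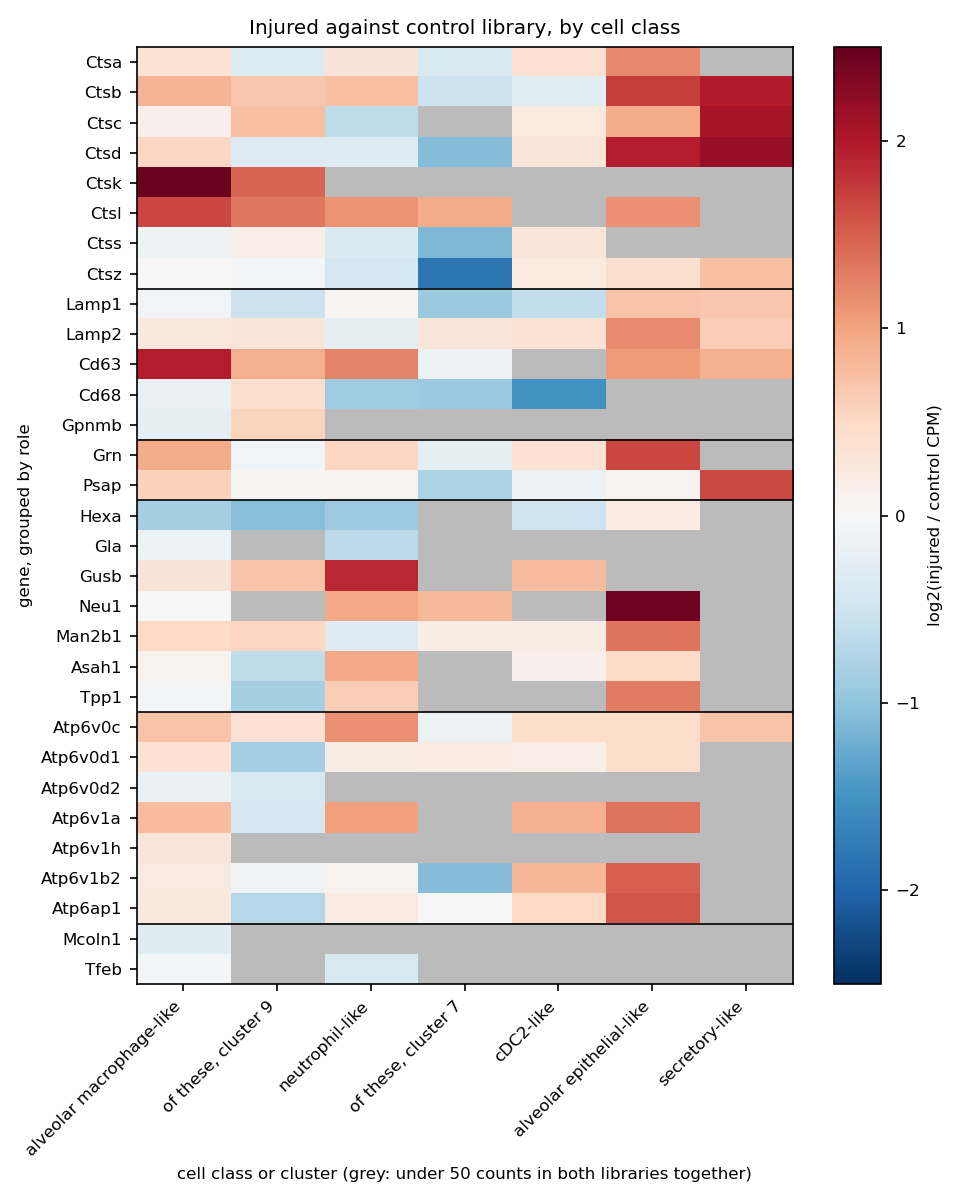
Log2 ratio of CPM, injured over control, for each member (rows, grouped by role) in each class or cluster compared (columns); grey marks under 50 counts over both libraries. Ctsl is higher in the macrophage, neutrophil and alveolar epithelial columns, and Hexa is lower in the macrophage and neutrophil columns.

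Other genes of the lysosome, in 5 lists, were read beside the members. In alveolar macrophage-like cells 6 of 29 other hydrolases and cofactors were higher and 2 lower, where 11% of all genes were higher and 19.6% lower. Lgmn, the asparagine endopeptidase that processes cathepsins, was 3.07-fold higher (638 against 208 CPM). The lysosomal phospholipase gene Pla2g15 was 2.47-fold lower (85.6 against 211 CPM). Of 19 membrane and sorting genes 3 were higher and 3 lower, with Igf2r, the mannose 6-phosphate receptor that sorts hydrolases, 17.8-fold higher (11.5 against 0.650 CPM, 95% interval 6.65 to 66.9, on 74 and 4 counts). Of the V-ATPase list 2 of 10 were higher and 0 lower, of the cystatin-type inhibitors 1 of 2, namely Cstb, 1.93-fold higher (1179.9 against 613 CPM), and of the MiT/TFE and mTORC1 regulators 1 of 13, namely Lamtor4, 1.85-fold higher (331 against 179 CPM).

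In neutrophil-like cells 7 of 13 hydrolases were higher and 1 lower, where 45.9% of all genes were higher and 9.55% lower. Membrane and sorting genes were higher in 4 of 9, V-ATPase genes in 4 of 10, cystatins in 5 of 6 and regulators in 3 of 10, with 0 lower in each. The stefins, cytosolic cathepsin inhibitors abundant in mouse neutrophils, included Stfa3, 4.10-fold higher (45.8 against 11.2 CPM, 95% interval 1.52 to 15.6, on 56 and 4 counts), and Stfa1, 3.46-fold higher (435 against 126 CPM). These belong to a family of near-identical copies, so counts may be split among them. In cluster 7 alone Stfa3 was 12-fold higher (145 against 12 CPM, 95% interval 4.45 to 45.7, on 56 and 4 counts) and Stfa1 9.14-fold higher (1234 against 135 CPM), while Cstb was 2.03-fold lower (111 against 225 CPM).

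The epithelial and dendritic classes differed in these lists too. In alveolar epithelial-like cells 7 of 10 hydrolases and 9 of 12 membrane and sorting genes were higher with 0 lower, where 53% of all genes were higher and 11.9% lower. Galc, the galactosylceramidase, was 5.55-fold higher (112 against 20.1 CPM, 95% interval 1.86 to 27.2, on 147 and 3 counts), and Igf2r 20.3-fold higher (136 against 6.71 CPM, 95% interval 3.59 to 805, on 179 and 1 counts). V-ATPase genes were split there, with 4 of 9 higher and 2 lower, as were regulators, with 3 of 9 higher and 3 lower, shares of higher genes below that of all genes. In secretory-like cells Npc2, which carries cholesterol out of lysosomes and is also secreted in the lung, was 2.95-fold higher (3647 against 1235 CPM). Of the 3 membrane and sorting genes measured there 2 were higher, as were 2 of 2 hydrolases, 2 of 5 V-ATPase genes, 1 of 2 cystatins and 0 of 4 regulators, with 0 lower in each, where 30.7% of all genes were higher. In cDC2-like cells, where 18.2% of all genes were higher and 11.5% lower, 4 of 14 hydrolases were higher and 2 lower, with the acid lipase gene Lipa 1.94-fold lower (46.5 against 90.3 CPM), and 3 of 7 membrane and sorting genes were higher and 2 lower. Of the 8 V-ATPase genes and 2 cystatins with 50 counts there, 0 were past 1.5-fold in either direction, and 1 of 7 regulators was lower.

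Lymphocytes and endothelium are described because their values were seen to differ. The 31 genes made 0.196% and 0.136% of UMIs in T cell or ILC2-like, 0.224% and 0.229% in B cell-like and 0.401% and 0.379% in endothelial-like cells. In T cell or ILC2-like cells (216 injured and 306 control) 12 of 24 members were higher and 1 lower, against 34.6% of 6320 genes higher and 4.49% lower, with a median log2 ratio of 0.58 over the members and 0.35 over all genes. Grn was 12.2-fold higher (95% interval 6.29 to 26.3), at 65.7 against 5.40 CPM, and Lamp2 was 2.82-fold higher (95% interval 1.90 to 4.24). Hexa, lower in alveolar macrophage-like and neutrophil-like cells too, was 1.69-fold lower (95% interval 0.986 to 2.99). The class was made of cluster 6, led by Lef1 and Cd8b1, with 69 injured and 221 control cells, and cluster 8, led by Cxcr6, Icos and Il2ra, with 147 and 85. Alveolar macrophage RNA differed as well: Chil3 was at 0.981% of its macrophage level among injured and 0.492% among control cells of this class. In B cell-like cells (56 and 315) 3 of 18 members were higher and 6 lower, against 21.3% of 4326 genes higher and 14.5% lower. Psap was 1.75-fold higher (95% interval 1.39 to 2.19) there and Ctss 1.59-fold lower (95% interval 1.25 to 2.06). In endothelial-like cells 1 of 11 members, Ctsl, was higher and 1, Grn, lower, against 17.8% and 20.1% of 2054 genes.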

How the data were processed

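RNA of single lung cells was measured in 2 libraries, injured and control. The authors deposited raw UMI counts (whole numbers for each gene in each cell) as filtered matrices of 32285 genes, made with Cell Ranger 4.0.0, per the file headers. The submitters' processing notes also name STAR 2.7.2c, featureCounts 1.6.3, DESeq2 1.26.0 and 1.28.1 and the builds GRCm38 and mm10, without roles. Total counts over the deposited barcodes were 22314603 in 2702 injured and 17207816 in 2674 control barcodes.

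Cells with at least 500 UMIs, 200 genes and at most 15% mitochondrial counts were kept. Simulated doublets were scored and 44 cells per library with the highest scores removed. Cells of both libraries were clustered together (2000 variable genes, 30 components, 20 neighbours, Leiden resolution 1) with 114 member and lysosome list genes left out. Clusters were named from 28 marker lists, and all clusters of 1 name were merged. The class called unnamed, and classes under 30 cells in a library, gave no ratio, and none was taken for the cycling-like and fibroblast-like classes. As an exception, the epithelial clusters 19 and 20 were compared from 10 cells per library. Counts were summed per class and library and divided by the class total (CPM), with exact Poisson and conditional 95% intervals. A count of 0 was given a floor of 3 counts in a ratio. Intervals and floors cover counting error only. Python 3.11.15, numpy 2.4.6, scipy 1.17.1, leidenalg 0.10.2, python-igraph 0.11.9, scikit-learn 1.9.0 and matplotlib 3.10.9 were used, and the ratio and call steps were tested on simulated data.

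The 31 members, the lysosome lists and the marker lists were chosen with earlier results of these data known. Genes named with values were, per class, the 4 members with the largest and the 4 with the smallest ratio, the 2 members per role with most counts, and up to 3 genes per lysosome list furthest past 1.5-fold, not all of which are reported here. Cell groups within the injured library, and the clusters singled out, were chosen after their values were seen. Member coordinates are GRCm38, and promoter sequences are from RefSeq on GRCm38.p6. Alternatives were other scalings, folds, count minimums, cell filters and ways of clustering.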

Additional observations from a re-analysis of the deposited data

Results flagged for a closer look

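Over the alveolar macrophage-like, neutrophil-like, cDC2-like, alveolar epithelial-like and secretory-like classes, Ctsc and Lamp1 were at least 1.5-fold higher in the injured library in at least 1 class and at least 1.5-fold lower in another. For Ctsc, the activator of granule serine proteases, the injured to control ratio of CPM was 1.90 in alveolar epithelial-like and 4.20 in secretory-like cells, and 0.648 in neutrophil-like cells, where the levels were 34.3 and 53.0 CPM. For Lamp1 the ratio was 1.63 in alveolar epithelial-like and 1.61 in secretory-like cells and 0.649 in cDC2-like cells, where it turned to 1.07 at a mitochondrial limit of 25% and to 2.04 with each library clustered alone. With 1 library per group these differences between classes were not tested.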

How the results depend on the processing

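Counts of members higher and lower in the injured library moved by over 1.5 times under these settings; the cause was not tested. At 2-fold, higher counts were 7 (13) for whole libraries, 3 (7) for alveolar macrophage-like, 5 (9) for neutrophil-like, 0 (3) for cDC2-like and 4 (9) for secretory-like cells, with the main count in brackets, and lower counts were 0 in alveolar macrophage-like and neutrophil-like and 1 in cDC2-like cells. With each cell weighted equally, 21 were higher in whole libraries, 2 lower in neutrophil-like (4), 4 lower in cDC2-like (2), and 5 higher and 1 lower in secretory-like cells, where Ctsz reversed to 0.597. Size factors gave 4 higher and 10 lower in neutrophil-like and 9 higher (15) in alveolar epithelial-like cells. A pseudocount of 50 CPM gave 0 lower in neutrophil-like, 1 higher and 1 lower in cDC2-like and 5 higher in secretory-like cells. With a minimum of 1 count, 9 were higher in cDC2-like, 7 lower in alveolar epithelial-like and 29 higher in secretory-like cells. A minimum of 20 counts gave 6, 1 and 17, and of 100 counts 1 higher in cDC2-like, 5 higher in secretory-like and 2 lower in neutrophil-like cells. Some calls at the minimum of 1 count came from the floor of 3 counts given to a count of 0. The 7 lower ones included Cd68, Gpnmb and Gla, with 12, 3 and 12 injured and 0 control counts. The 29 higher ones included Gpnmb and Mcoln1, with 0 injured and 1 control count each. Mitochondrial limits of 10% and 25% gave 6 and 5 higher in cDC2-like cells, with 1 lower and Lamp1 reversed to 1.07 at 25%. Without doublet removal 1 was lower in cDC2-like cells, and 4 were higher and 1 lower in secretory-like cells, where Psap reversed to 0.870. With each library clustered alone, 2 were higher and 8 lower in neutrophil-like cells, where Cd63 (0.916) and Atp6v0c (0.899) reversed, and 20 were higher and 0 lower in cDC2-like cells, where Lamp1 reversed to 2.04. The classes held other cells under that setting. Neutrophil-like cells numbered 159 injured and 122 control, against 588 and 126 in the main setting. The cDC2-like class held 128 and 129, against 83 and 64, and the control library had 0 mature DC-like cells, against 10. With the members used in clustering, 1 was lower in cDC2-like cells.

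Settings chosen after seeing the data were single clusters and the total without Scgb1a1. Cluster 9 alone gave 5 lower and Grn at 0.954; cluster 7 alone gave 7 lower and 2 higher, with Cd63 (0.919) and Atp6v0c (0.908) reversed. Cluster 19 alone gave 2 lower, cluster 20 alone 0 higher with Ctsd reversed to 0.848, and leaving out Scgb1a1 gave 4 higher in secretory-like cells. Of 592 values of single members under all settings, 494 stayed within the counting interval of the main ratio, 88 moved outside it and 10 reversed. Reversal was scored only for members past 1.5-fold in the main setting, so turns of direction among the others are not counted as reversed.

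No paired analysis was possible because each group had 1 library, and no library could be left out. Low depth limits the cDC2-like, alveolar epithelial-like and secretory-like classes, where 20, 21 and 9 of 31 members reached 50 counts. The control mature DC-like class, with 10 cells, gave no ratio.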
